A study of Arabidopsis thaliana with 3 samples.

Results

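The length of the poly(A) tail of an mRNA is set by enzymes that shorten it and by proteins that coat it, and 10 Arabidopsis thaliana genes of these groups, taken by locus identifier, were followed here among the 26810 genes with a value in any library. They were CAF1A (AT3G44260), CAF1B (AT5G22250), CCR4A (AT3G58560), CCR4B (AT3G58580) and NOT1 (AT1G02080) of the CCR4-NOT deadenylase complex, and PARN (AT1G55870), also called AHG2. The poly(A)-binding protein genes were PAB2 (AT4G34110), PAB4 (AT2G23350), PAB8 (AT1G49760) and PAB5 (AT1G71770). All 10 had a value in each of the 3 libraries. The plant material was buds from immature inflorescences of dcl1-7, a mutant of the Dicer enzyme DCL1 that makes microRNAs, and every library carried this mutation. Plants had no further treatment, were about 4 weeks old, and had grown in days of 16 h light and 8 h dark. PolyA RNA was read in 2 RNA-seq libraries, and its uncapped 5′ ends were read in 1 GMUCT library, with reads of 50 nt. No other genotype is analysed here, so whether the mutation shapes any value cannot be told. The number of plants behind a library is not given in the sources used here.

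In plants, as in yeast and animals, decay of most mRNAs begins with shortening of the tail. CAF1 and CCR4 proteins are the nucleases of the CCR4-NOT complex, and NOT1 is the scaffold on which the complex is built. PARN is a separate tail-specific nuclease. Poly(A)-binding proteins cover the tail, contact the cap-binding complex through the eIF4G proteins and so tie the tail to translation. Once the tail is short the cap is removed, and the uncapped RNA is degraded from its 5′ end. GMUCT catches molecules that have lost the cap, or were cut, and still have a tail.

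Values were in RPKM, reads scaled to gene length and library size, so that levels can be compared between genes per unit of length. The spacing of low values put the depth at about 18400000 reads for RNA-seq library 1, 8700000 for library 2 and 19400000 for GMUCT. The pair of RNA-seq libraries differed little, with an SD of 0.216 for their log2 difference over 20214 genes. All 6 floral markers were above 0 in every library, with sums of 418.7 and 417.9 RPKM in RNA-seq and 354.0 in GMUCT. The 4 late pollen markers were present too, with sums of 379.3, 391.3 and 171.0 RPKM. Of 4 root hair markers, EXPA7, EXPA18 and RHD6 were listed in neither RNA-seq table used here, and the sum of the list was 1.74, 1.15 and 2.83 RPKM. In GMUCT all 4 were above 0, with EXPA7 at 0.83 RPKM against 0.67 RPKM for the floral marker LFY. A value above 0 in GMUCT therefore does not set these lists apart.

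The first question was how much mRNA each gene had in these buds. PAB2 was the most abundant of the 10, and CAF1A and CAF1B were the least abundant. PAB2 had 111.09 and 120.94 RPKM in RNA-seq libraries 1 and 2, more than 96.8% of the tested genes. PAB4 followed with 46.76 and 44.35 RPKM, and PAB8 with 40.39 and 39.75 RPKM. The ranges of these genes did not overlap, although PAB4 exceeded PAB8 by only 1.16-fold and 1.12-fold. CCR4A came next with 33.3 and 26.83 RPKM, and NOT1 had 16.99 and 16.38 RPKM. CCR4B (14.87 and 13.27 RPKM) and PAB5 (12.86 and 13.62 RPKM) overlapped and did not differ beyond the spread of their libraries. PARN had 6.22 and 5.27 RPKM. CAF1A (2.71 and 3.82 RPKM) and CAF1B (3.1 and 2.81 RPKM) overlapped as well. Only 2 RNA-seq libraries exist, so the order of levels is a description.

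**Figure D1:**
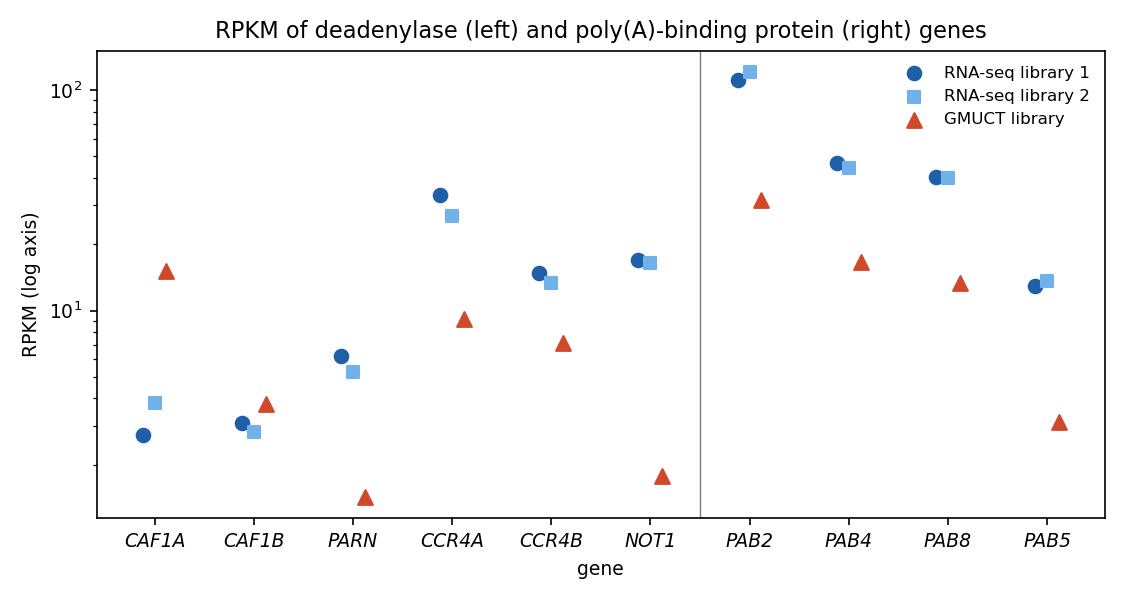
RPKM of the 10 genes in each library, on a log axis, with circles and squares for RNA-seq libraries 1 and 2 and triangles for the GMUCT library. The triangle lies under both RNA-seq points for every gene except CAF1A, at 15.15 RPKM, and CAF1B, at 3.77 RPKM.

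The other question was which of these mRNAs had uncapped ends in excess of their abundance and which had few, that is, GMUCT against RNA-seq in the same genotype. CAF1A alone was called higher in GMUCT, at 4.64-fold the mean RPKM of RNA-seq, and 8 of the 10 genes were lower, by 1.97-fold for CCR4B to 9.37-fold for NOT1. CAF1B did not pass the test. Calls came from limma on log2(RPKM + 0.5), on which ratios of low genes come out too small, fitted on 20214 genes with Benjamini-Hochberg adjustment at 0.05. By the same test 36.9% of all tested genes were lower and 32.1% higher in GMUCT. The median log2 ratio was -1.6 for the 10 genes and -0.07 for all tested genes. GMUCT lay at least 2-fold under both RNA-seq libraries for 7 of the 10 genes, against 19.6% of all tested genes, and at least 2-fold above both for 1, against 21.5%. The test had 1 residual degree of freedom, the single GMUCT library was assumed to vary like the RNA-seq libraries, and p-values measure only a spread between libraries that may be technical.

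**Figure D2:**
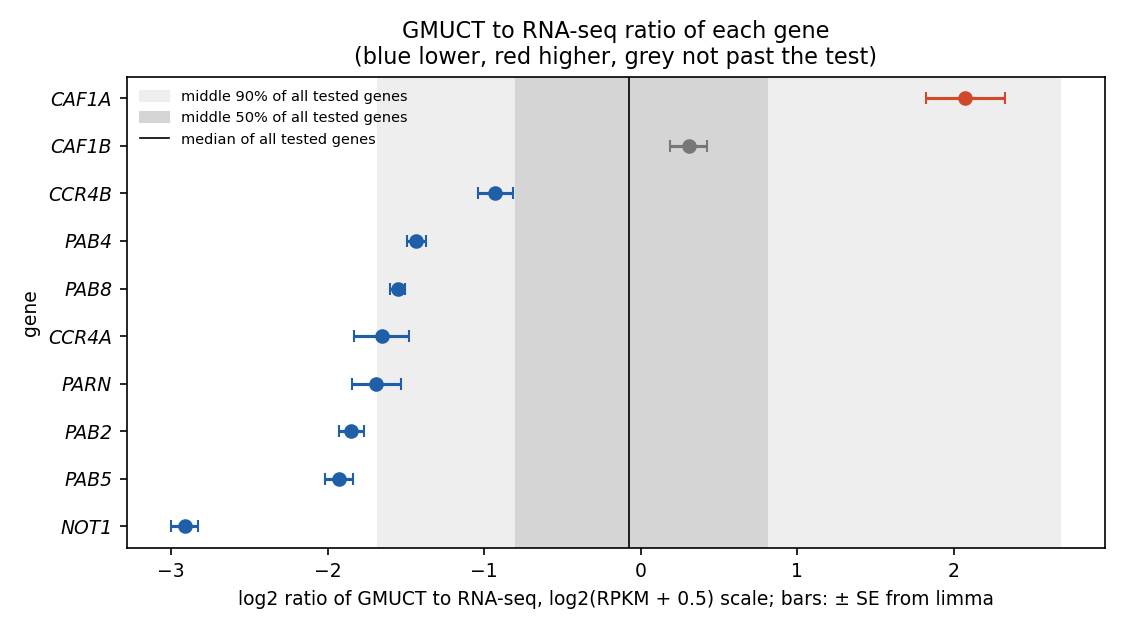
Log2 ratio of GMUCT to RNA-seq for each of the 10 genes, with bars of ± SE from limma, over the middle 50% (dark band, -0.8 to 0.81) and the middle 90% (light band, -1.68 to 2.68) of all tested genes. CAF1A lies at 2.07, CAF1B at 0.31 inside the dark band, and the other 8 genes between -0.93 and -2.91.

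CAF1A and CAF1B encode close relatives among the catalytic deadenylases, known in Arabidopsis from responses to wounding and stress. Their mRNA levels were alike and their GMUCT levels were not. CAF1A had 2.71 and 3.82 RPKM in RNA-seq, against 15.15 RPKM in GMUCT. The GMUCT value was 5.59-fold and 3.97-fold above the RNA-seq libraries, and the log2 ratio was 2.07 with an SE of 0.25 (limma adjusted p = 0.0155). CAF1B had 3.1 and 2.81 RPKM in RNA-seq against 3.77 RPKM in GMUCT, 1.22-fold and 1.34-fold above the RNA-seq libraries. Its log2 ratio of 0.31 (SE 0.12) had a limma adjusted p of 0.121. The level of CAF1A over that of CAF1B was 0.874 and 1.36 in the RNA-seq libraries and 4.02 in GMUCT. That contrast between the genes rests on 1 GMUCT library and was not tested. About 67 and 45 RNA-seq reads lay behind the CAF1A values and about 75 and 32 behind those of CAF1B, with about 394 and 97 GMUCT reads, so the RNA-seq side is the less precise.

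The coding sequences of the pair were 81.4% identical over 828 aligned bases. Both genes have 1 exon, and their transcripts are of nearly the same length, 1339 and 1323 nt. Every 50-base stretch of their exons occurred once in the genome, so reads of 50 nt that match without error would tell them apart; the same held for the exons of the other 8 genes.

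CCR4A and CCR4B, the partner nucleases of CAF1 in the complex, were both lower in GMUCT, CCR4B not under every setting. CCR4A had 33.3 and 26.83 RPKM in RNA-seq against 9.15 RPKM in GMUCT. Its log2 ratio was -1.66 (SE 0.18; limma adjusted p = 0.0124). CCR4B had 14.87 and 13.27 RPKM against 7.14 RPKM, and its log2 ratio was -0.93 with an SE of 0.11 (limma adjusted p = 0.0148). The CCR4B value was 2.08-fold and 1.86-fold under the RNA-seq libraries and so missed the 2-fold rule. With GMUCT taken per gene and centred on the median gene, CCR4B was at -0.34 and no longer past the test, and CCR4A was at -1.08 and still past it. CCR4A made up 69.1% and 66.9% of the summed RPKM of the pair in RNA-seq and 56.2% in GMUCT. The 2 coding sequences were 75.3% identical. On the opposite strand CCR4B overlaps AT3G58570, which had 15.83 and 15.64 RPKM in RNA-seq against 10.18 RPKM in GMUCT. Whether the counting kept strands apart is not given in the sources used here, so reads of these 2 genes may be mixed.

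NOT1 had the lowest ratio of the 10 genes. It had 16.99 and 16.38 RPKM in RNA-seq against 1.78 RPKM in GMUCT, 9.55-fold and 9.20-fold lower. The log2 ratio was -2.91 (SE 0.09; limma adjusted p = 0.00451), and only 0.2% of tested genes lay lower. The transcript used for NOT1 is 7461 nt long with 50 exons, and about 258 GMUCT reads lay behind its value. The ratio was -1.74 once the trend with transcript length was removed, and -0.98 when GMUCT was taken per gene rather than per length and centred on the median gene. NOT1 stayed past the test in both.

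PARN is known in Arabidopsis from the abscisic acid hypersensitive mutant ahg2. It had 6.22 and 5.27 RPKM in RNA-seq against 1.43 RPKM in GMUCT, the lowest GMUCT value of the 10. The log2 ratio was -1.69 (SE 0.16; limma adjusted p = 0.0102), with about 74 GMUCT reads. AT1G55880 overlaps PARN on the other strand and had 7.34, 7.36 and 3.78 RPKM, so the same doubt about strand holds.

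The 4 poly(A)-binding protein genes were all lower in GMUCT, as were 36.9% of all tested genes. Their log2 ratios ran from -1.43 to -1.93, a range that also held CCR4A (-1.66) and PARN (-1.69). PAB2, PAB4 and PAB8 are the broadly expressed members of the family. PAB2 had 111.09 and 120.94 RPKM in RNA-seq against 31.84 RPKM in GMUCT (log2 ratio -1.85, SE 0.08; limma adjusted p = 0.00515). PAB4 had 46.76 and 44.35 RPKM against 16.54 RPKM (log2 ratio -1.43, SE 0.06; limma adjusted p = 0.00513). PAB8 had 40.39 and 39.75 RPKM against 13.32 RPKM (log2 ratio -1.55, SE 0.05; limma adjusted p = 0.00458). In each of them the GMUCT value was more than 2-fold under the lower RNA-seq library. With GMUCT taken per gene and centred on the median gene, the log2 ratios were -1.06 for PAB2, -0.75 for PAB4 and -0.85 for PAB8, all still past the test. The order PAB2, PAB4, PAB8 was the same in all 3 libraries.

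PAB5 is known for expression in reproductive organs. It had 12.86 and 13.62 RPKM in RNA-seq against 3.11 RPKM in GMUCT, 4.26-fold lower than the RNA-seq mean. Its log2 ratio was -1.93 (SE 0.09; limma adjusted p = 0.0054). PAB2 was 8.64-fold and 8.88-fold above PAB5 in RNA-seq and 10.2-fold above it in GMUCT. PAB5 overlaps AT1G71760 on the other strand, which had 2.0, 1.75 and 5.4 RPKM, and PAB4 overlaps AT2G23348, which stayed under 1 RPKM in all libraries. Of the 4 late pollen markers, VGD1 and RALF4 were lower in GMUCT, and AGP6 and AGP11 were not called. Among all tested genes 36.9% were lower. Any link of these markers to the PAB5 ratio was not tested. For a level in whole buds, fewer cells of a type and less RNA per cell cannot be told apart.

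PAB1, PAB3, PAB6 and PAB7 complete the cytoplasmic family. PAB3, which like PAB5 is known from reproductive organs, was also lower, at 23.59 and 22.46 RPKM in RNA-seq against 4.13 RPKM in GMUCT (log2 ratio -2.35, SE 0.07; limma adjusted p = 0.00458). PAB6 (2.89, 3.27 and 2.19 RPKM) and PAB7 (5.63, 5.92 and 7.43 RPKM) did not pass the test. PAB1 was listed in neither RNA-seq table used here and had 0.41 RPKM in GMUCT. Summed over PAB1 to PAB8, the family had 243.2 and 250.3 RPKM in RNA-seq against 78.97 RPKM in GMUCT. PAB2 made up 45.7% and 48.3% of that sum in RNA-seq and 40.3% in GMUCT. The share of PAB7 was 2.3% and 2.4% in RNA-seq and 9.4% in GMUCT. The nuclear poly(A)-binding genes, whose proteins act during tail synthesis, were lower in GMUCT, as were 36.9% of all tested genes. Of the 6 tested poly(A)-binding genes outside the members, 4 were lower, 0 were higher and 2 did not pass. The nuclear genes all missed the 2-fold rule. PABN1 had 25.58, 23.17 and 18.45 RPKM (log2 ratio -0.39), PABN2 21.02, 19.05 and 12.4 RPKM (-0.67) and PABN3 30.11, 29.39 and 16.36 RPKM (-0.84), all past the test.

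**Figure D3:**
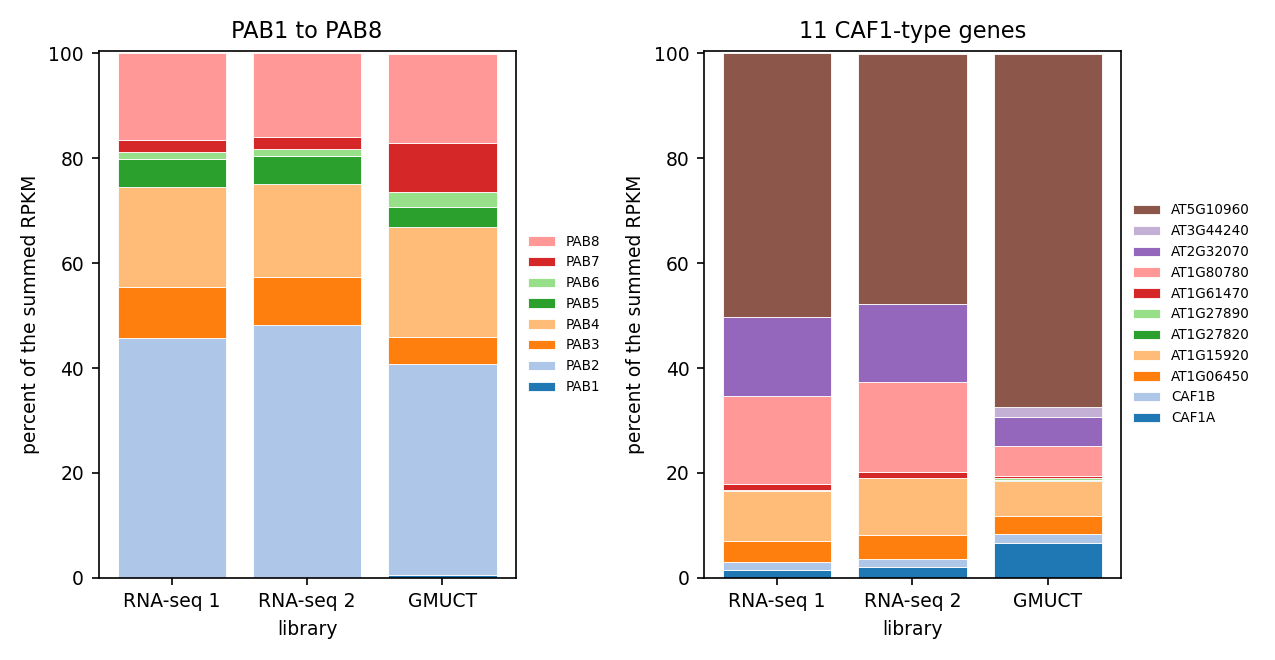
Share of the summed RPKM of each family taken by each gene in the 3 libraries, for PAB1 to PAB8 and for 11 CAF1-type genes. PAB2 holds 45.7%, 48.3% and 40.3% of its family, and AT5G10960 holds 50.2%, 47.7% and 67.4% of the CAF1-type sum.

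Runs of A in the 5′ UTR are shown next because human cytoplasmic poly(A)-binding protein is known to bind such a run in its own mRNA. The search for runs of at least 8 A on the transcript strand was chosen after the sequences had been seen. The cutoffs of 9 and 17 A used below are run lengths of the genes shown. Such a run stood in the 5′ UTR of 4 of the 6 cytoplasmic PAB genes with an annotated 5′ UTR, namely PAB2, PAB3, PAB4 and PAB5. It stood in 2 of 17 deadenylase genes of the CAF1, CCR4 and PARN types, CAF1B and AT1G15920, and in 12 of all 62 genes of the members and lists with such a UTR, LARP1B with a run of 23 A among them. Among 22108 genes with a 5′ UTR of at least 30 nt it stood in 14.7%. The run of 17 A in PAB5, 118 nt before the start codon, had an equal or longer counterpart in 0.602% of those genes. That cutoff is the length of PAB5 itself, the longest run among the members, so a small share was largely fixed in advance. The 30 bases around the longest run, from RefSeq (TAIR10.1), read 5′ to 3′ on the strand of the transcript with the run in capitals, were as follows.
PAB5: tagacggAAAAAAAAAAAAAAAAAtaaccc
PAB3: ctaaaaaaggAAAAAAAAAAAtctaaataa
PAB4: accaaaaaaccAAAAAAAAAgccttagctt
PAB2: cataaaaacacAAAAAAAAcgaaaagataa
CAF1B: accaaatcaacAAAAAAAAAcagacttttg
PAB8 had no run over 5 A in its 5′ UTR, and its log2 ratio of -1.55 lay between those of PAB4 and PAB2. Over all tested genes with a 5′ UTR of at least 30 nt, the median log2 ratio was -0.15 with a run of at least 8 A and -0.12 for all. It was -0.18 over 2009 genes with at least 9 A, and -0.4 over 123 genes with at least 17 A. The deposited values are gene totals and do not place any uncapped end at these runs. Any bearing of the runs on the ratios was not tested.

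Transcript length went along with the ratio. CAF1A and CAF1B, neither of which was lower, were the shortest of the 10 and the only ones with 1 exon. The other 8 transcripts had 7 exons or more and were 2428 nt or longer. Across the 10 genes, Pearson's r between log2 length and log2 ratio was -0.844 and Spearman's rho was -0.77. Across 20072 tested genes with a length, r was -0.333 and rho was -0.309. These correlations are across genes that share the same libraries and are given as a description. The lengths of the 10 genes are unevenly spread, with NOT1 alone at 7461 nt. The NOT1 ratio moved from -2.91 to -0.98 with GMUCT taken per gene and centred on the median gene. Of tested genes, 3445 with 1 exon had a median log2 ratio of 0.65, and 16627 with more exons had -0.2. With the length trend removed, CAF1A was at 1.92 and PAB2 at -1.41, and each of the 9 calls held.

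**Figure D4:**
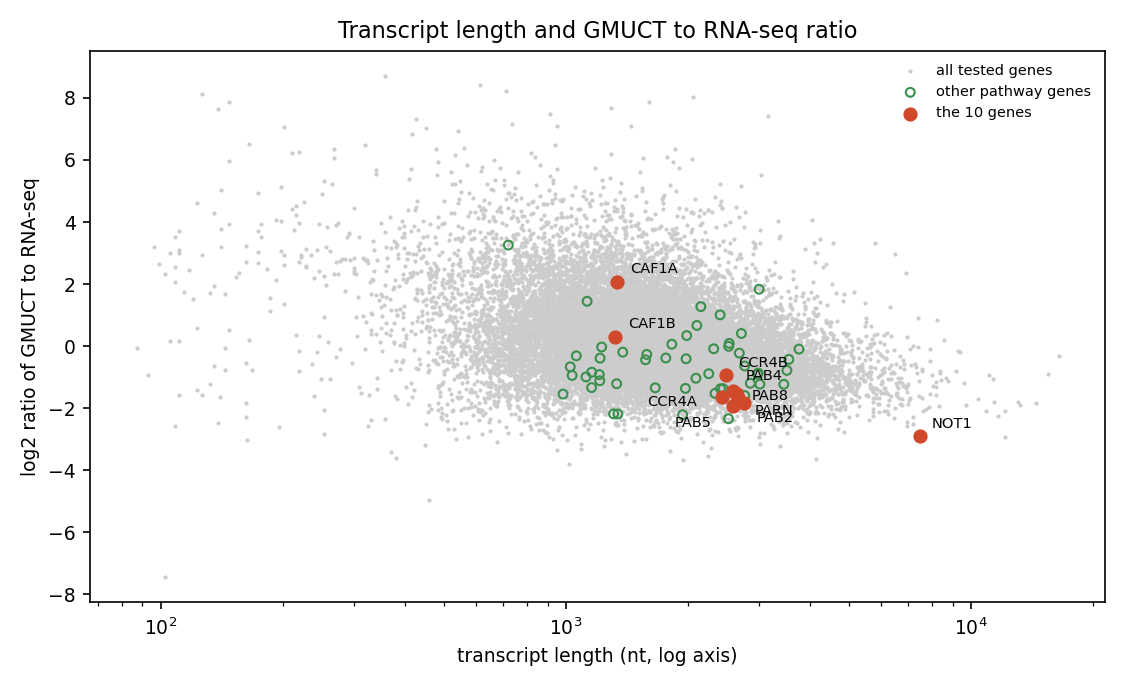
Log2 ratio of GMUCT to RNA-seq against transcript length on a log axis, for all tested genes (grey), other pathway genes (open circles) and the 10 genes (red, with names). CAF1A and CAF1B lie near 1339 and 1323 nt, 7 of the genes lie together between 2428 and 2753 nt, and NOT1 lies alone at 7461 nt.

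The remaining genes of tail metabolism were taken from 6 lists given by function, with 58 genes in all, of which 57 had a value and 51 were tested. EIF4G is not analysed here, since it was listed in none of the tables used. EIF4G is widely expressed in plants, so setting an unlisted gene such as PAB1 or AT3G44240 to 0 RPKM need not give its true level. In GMUCT 32 of the 51 lay lower and 7 higher, and 12 did not pass, with a median log2 ratio of -0.78, against 36.9% lower and 32.1% higher among all tested genes. With GMUCT taken per gene, 26 were lower and 12 higher, against 33.9% and 34.3% of all genes. With the length trend removed the counts were 30 and 11, against 34.2% and 32.4%.

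Other CAF1-type genes went both ways. Of 7 tested genes, 4 lay lower and 2 higher, against 36.9% and 32.1% of all tested genes. The remaining 1 of the 7 did not pass, and the median was -0.38. AT1G27820 and AT1G27890 of the list were not tested. AT5G10960 was the most abundant CAF1-type gene, at 100.26 and 91.15 RPKM in RNA-seq against 151.8 RPKM in GMUCT (log2 ratio 0.66, SE 0.09; limma adjusted p = 0.0177). It held 50.2% and 47.7% of the summed RPKM of 11 CAF1-type genes in RNA-seq, against 1.4% and 2.0% for CAF1A. In GMUCT the share of CAF1A was 6.7%. AT1G80780 had the lowest ratio, with 33.57, 33.15 and 12.88 RPKM (-1.34). AT3G44240 was listed in neither RNA-seq table used here and had 4.28 RPKM in GMUCT, so no fold is given for it, and its call, 1 of the 2 higher ones, rests on the pseudocount.

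Of 5 tested CCR4-type and PARN-type genes 3 were lower, against 36.9% of all tested genes. The other 2 of the 5 did not pass, and the median was -1.04. AT5G11350 had the lowest ratio, with 4.87, 4.18 and 1.24 RPKM (-1.53), and overlaps a gene on its own strand, so its reads may be mixed. AT1G31500 had the highest ratio, at 4.36, 3.69 and 3.24 RPKM (-0.27). AT3G18500 was the most abundant, at 5.69, 5.36 and 3.93 RPKM. Neither of these last genes passed the test.

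Other NOT subunits bind the NOT1 scaffold or regulate the complex. Of 9 tested, 1 did not pass, and the median was -0.92. Against 36.9% lower and 32.1% higher among all tested genes, 7 of the list lay lower and 1 higher. NOT3 was the exception and the most abundant, with 25.9 and 25.83 RPKM in RNA-seq against 93.38 RPKM in GMUCT (log2 ratio 1.83, SE 0.04; limma adjusted p = 0.00401). Its transcript is 2995 nt long with 15 exons, and any bearing of length on its ratio was not tested. The NOT9-type gene AT3G20800 had the lowest ratio, at 11.14, 9.81 and 1.9 RPKM (-2.19).

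Genes that lengthen or tag the tail form the next list. Of 5 tested poly(A) polymerase and uridylyltransferase genes 1 was higher and 1 lower, against 32.1% and 36.9% of all tested genes. The other 3 of the 5 did not pass, and the median was -0.09. PAPS1 had 11.55, 10.85 and 14.99 RPKM (log2 ratio 0.41; limma adjusted p = 0.0357). Of the 50-base stretches of its exons, 95.2% occurred once in the genome, and it overlaps AT1G17970 on the other strand. PAPS2, PAB6, PAB7, PABN1 and AT3G20800 also overlap a gene on the other strand, so the doubt about strand holds for all of these. PAPS2 had the lowest ratio, with 5.6, 6.74 and 4.43 RPKM, and did not pass. URT1, which adds U to deadenylated mRNAs, was the most abundant, with 23.98, 22.61 and 24.75 RPKM, and did not pass.

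Of 19 partners of poly(A)-binding proteins, 13 were lower and 3 higher in GMUCT, against 36.9% and 32.1% of all tested genes. The other 3 of the 19 did not pass, and the median was -0.89. By the 2-fold rule 7 were lower, 2 higher and 10 neither, against 19.6% lower and 21.5% higher among all tested genes. CID11, a protein with the PAM2 motif that docks on poly(A)-binding proteins, had the lowest ratio, with 41.63, 45.88 and 9.03 RPKM (-2.21). CID5 had the highest, with 2.26, 1.49 and 5.87 RPKM (log2 ratio 1.44, SE 0.275, limma adjusted p = 0.0337). Only about 47 and 15 RNA-seq reads lay behind CID5, so its ratio is imprecise. The 2 other higher genes, singled out after their values were seen, were LARP1B and LARP1C, genes of the La-related family. LARP1B had 8.6, 6.5 and 18.78 RPKM (log2 ratio 1.27). It overlaps AT5G66110 on the same strand, so reads of these 2 genes may be mixed. LARP1C had 13.48, 14.59 and 28.64 RPKM (log2 ratio 1.005). At 1.96-fold above RNA-seq library 2 it missed the 2-fold rule. CID1, also called ERD15, was the most abundant at 362.46, 298.39 and 321.82 RPKM but was not called.

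Likeness over 3 libraries was measured as the Euclidean distance of log2(RPKM + 0.5). The tested genes nearest to CAF1A were scpl41, a serine carboxypeptidase-like gene (2.9, 3.57 and 13.7 RPKM; distance 0.184), and SAUR23 of the auxin-responsive SAUR family (3.05, 4.08 and 14.25 RPKM; distance 0.188). Nearest to NOT1 were GN, a gene of a sec7 domain protein (16.54, 16.49 and 1.98 RPKM; distance 0.127), and AT1G71020 (15.75, 15.46 and 1.86 RPKM; distance 0.142). With 3 libraries such distances match levels only.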

How the data were processed

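The deposited tables, 1 for each library, hold gene identifiers and RPKM values, without a header and rounded to 2 decimals. The authors used cutadapt 1.4.2, STAR 2.4.0 and build TAIR10, per the submitters' processing notes. The counting tool, gene lengths, read total and handling of strand stand as not given in the sources used. A gene missing from a table was set to 0 RPKM.

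Depth was estimated from the largest regularity of RPKM times length among low values, searched up to 25000000 reads because larger solutions were multiples. Of the low values 34.6% to 35.8% came within 0.1 of a whole number of reads, against 20% by chance. Depths and read numbers are therefore approximate and carry no intervals.

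Genes with a mean of the assays of at least 1 RPKM were tested on log2(RPKM + 0.5) with limma 3.58.1 (R 4.3.3; eBayes with trend), two-sided. The 2-fold rule used RPKM itself. Lengths, exons, coding identity (Biopython 1.88) and 50-base uniqueness came from TAIR10.1, which held 26459 of the identifiers and is not named as the authors' build; coordinates are left out. The transcript with the longest coding sequence was used. Alternatives covered pseudocounts, filters, centring, length, the limma trend, fold thresholds and leaving out each RNA-seq library.

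The 10 genes and all lists were chosen with earlier results of these data known. Named besides them are all other poly(A)-binding genes, and in each other list the genes with the highest and lowest tested ratio and the highest mRNA level. LARP1B, LARP1C and the genes named for a run of A were added after their values were seen.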

Additional observations from a re-analysis of the deposited data

How the results depend on the processing

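No paired analysis was possible because GMUCT has 1 library and the groups share fewer than 2 replicate numbers. Of 98 values of the 10 genes under the alternatives, 97 kept their direction and side of the threshold or moved by less than the spread of the RNA-seq libraries. The exception was CCR4B with GMUCT taken per gene, at -0.34 and no longer past the test. The cause was not tested. Leaving out 1 of 2 RNA-seq libraries always moves a ratio by less than that spread, so those values could not count as moved. CAF1A was at 1.86 without library 1 and at 2.29 without library 2. PARN and CAF1B could not be fitted at a mean of at least 5 RPKM. With a 4-fold rule in place of 2-fold, 0 of the 10 genes were higher and 2 lower, 1 and 4 other pathway genes were higher and lower, and 2103 and 611 of all genes (10.4% and 3.02%). A 1.5-fold rule gave 6440 genes lower. Other pathway genes higher in GMUCT numbered 11 with the length trend removed and 12 with GMUCT per gene, against 7. Leaving out either RNA-seq library gave 7 to 8 of the 10 genes at least 2-fold lower and 1 higher, against 21.3% to 21.4% and 22.9% to 23.6% of all tested genes. Such fits had no residual degree of freedom and so no test. Among the 10 genes, depth limits CAF1A and CAF1B most, with about 32 to 75 RNA-seq reads in each library.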
